A study of Mus musculus with 2 samples.

Results

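The genes described here code for nuclear receptors of steroid hormones, for the enzymes that set how much active glucocorticoid a cell holds, and for genes known to respond to these receptors. The 9 members, of 36528 gene rows in each count table, are Esr1, Pgr, Nr3c1, Nr3c2, Hsd11b1, Hsd11b2, Greb1, Fkbp5 and Tsc22d3. They were picked by name and function with results of the same data in view, among them the large ratios of Esr1 and Hsd11b2 between the libraries. Those ratios are therefore given as descriptions, with no test, and nothing is drawn from their size.

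The series holds 1 droplet single-cell RNA library per genotype from cultured mouse epidermal cells, set up to compare cells in which Bap1, which codes for a deubiquitinase of the nucleus, was or was not deleted. The library labelled knockout came from 9 pooled C57BL/6 neonates at postnatal day 1 with floxed Bap1 (Bap1 fl/fl) and Rosa26-CreERT2. The library labelled wild type came from 11 pooled neonates of the same background and age with Rosa26-CreERT2 and no floxed Bap1. Both cultures were grown in medium M254 with human melanocyte growth supplement (HMGS), received 100 nM 4-hydroxytamoxifen (4-OHT) for 4 days and were collected after 3 more days without it. CreERT2 is a recombinase fused to a ligand-binding domain of the estrogen receptor and is driven from Rosa26, a locus active in most cell types, so by its design deletion was not limited to a single cell type. 4-OHT is itself a ligand of estrogen receptors, and both groups shared the fusion and the drug. Whether reads of the fusion transcript were counted as Esr1 was not tested and cannot be read from count tables, so the Esr1 values may include some.

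Estrogen, progesterone, glucocorticoid and mineralocorticoid receptors are transcription factors that wait bound to chaperones, take up their hormone and then bind DNA at short palindromic elements. Which glucocorticoid signal reaches the receptor depends on enzymes inside the cell: the type 1 11β-hydroxysteroid dehydrogenase (Hsd11b1) regenerates active corticosterone in mice, and the type 2 enzyme (Hsd11b2) inactivates it. In skin, glucocorticoids restrain inflammation and keratinocyte proliferation, and the glucocorticoid receptor is needed for normal barrier formation.

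The library labelled knockout held 1760 cells with 64954113 unique molecular identifiers (UMIs, each standing for 1 captured RNA molecule), and the library labelled wild type 1926 cells with 77579465 UMIs. The median cell had 33585 UMIs in the knockout library and 37223 in the wild type library. Of the cells kept, 1597 of 1738 in the knockout library and 1753 of 1912 in the wild type library lay in clusters 0 to 5, which are called keratin-rich here. Their 8 basal keratinocyte markers summed to 5429 CPM in the knockout library and 7081 CPM in the wild type library, where CPM is a gene's share of the UMIs in the same cells, scaled to a fixed total. A set of 6 Merkel cell markers, which includes Krt8 and Krt18, summed to 7720 CPM in the knockout library and 4846 CPM in the wild type library. Of these clusters only cluster 2 was led by a keratinocyte marker set, and the others by no set. Different clusters held most of each library. Cluster 4, led by Obp2a and Odam, held 44.1% of the keratin-rich cells in the knockout library and 1.77% in the wild type library. Nupr1 and Gdf15 stood lower among its top genes. Cluster 1, led by Prl8a9 and Ccl20, held 6.51% in the knockout library and 48.8% in the wild type library. Cxcl5 stood lower among its top genes. Cluster 0, with Dio3 and Acta2, had 405 knockout and 7 wild type cells. Cluster 2 was led by suprabasal markers, cluster 3 by Nppb and Igfbp2 and cluster 5 by the mitotic genes Cenpa and Ube2c. Smaller classes were melanocyte-like (56 knockout and 22 wild type cells), Schwann-like (36 knockout and 59 wild type) and myeloid-like cells (20 knockout and 36 wild type), and an unnamed cluster 6 with fibroblast markers (29 knockout and 42 wild type). In cluster 6 skeletal muscle markers also summed to 1844 CPM in the knockout library and 1616 CPM in the wild type library, so its values may mix cell types. Over both libraries Krt5 stood at 243 CPM in cluster 6 and 223 CPM in cluster 4, and Krt14 at 1326 and 2203 CPM. A finer clustering (Leiden resolution 1) gave 1 cluster with fibroblast markers (38 cells) and 1 with skeletal muscle markers (35 cells). Bap1 RNA itself was higher in the knockout library (19.6 CPM, 1221 UMIs) than in the wild type library (14.0 CPM, 1042 UMIs), which goes against the label, so directions rest on the labels. The exons deleted were not given in the sources used here, and a 3′ tag outside them checks nothing. The 2 libraries shared 3 cell barcodes. With 1 library per group no test was possible, and every 95% interval covers counting error only.

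In the keratin-rich cells Esr1 and Hsd11b2 were far higher in the knockout library, and Nr3c1, Fkbp5 and Tsc22d3 were lower by less than 1.5-fold. Pgr had no UMI in any cell, and Nr3c2, Hsd11b1 and Greb1 had between 13 and 85 UMIs over both libraries, too few to give a direction. Of the 9 members, 5 passed a minimum of 100 UMIs over both libraries. At that minimum 258 of 13554 genes were at least 2-fold higher in the knockout library (1.9%), and 903 were at least 2-fold lower (6.66%). At a minimum of 20 UMIs the shares were 3.15% higher and 9.13% lower. Esr1 and Hsd11b2 are 2 of the 258, and since the choice of members used this contrast, nothing is read from that count. The median log2 ratio over the 13554 genes was 0.00. Counted from the lowest ratio, Nr3c1, Fkbp5 and Tsc22d3 lay at percentiles 19.2, 16.6 and 15.5 of these genes, so many genes were lower than they were.

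Esr1, the gene of estrogen receptor alpha, had 1375 UMIs in 1597 keratin-rich cells of the knockout library (22.1 CPM), against 100 UMIs in 1753 cells of the wild type library (1.35 CPM). This is a 16.4-fold ratio, a log2 ratio of 4.04 with an interval of 3.74 to 4.34, and rank 6 among the 13554 genes. Esr1 (identifier 13982) spans chromosome 10 from 4611989 to 5005633 on the plus strand of GRCm38, the assembly of every position given here, and overlaps no other gene of the RefSeq annotation. RefSeq lists more than 1 start for it. The 250 bases before a pair of these starts are shown because Esr1 moved more than any other member, and because the estrogen receptor is known to bind the half-site AGGTCA, which reads TGACCT on the other strand. Neither window holds that half-site, so no base is in capitals.
Esr1, chr10:4611739-4611988, plus strand: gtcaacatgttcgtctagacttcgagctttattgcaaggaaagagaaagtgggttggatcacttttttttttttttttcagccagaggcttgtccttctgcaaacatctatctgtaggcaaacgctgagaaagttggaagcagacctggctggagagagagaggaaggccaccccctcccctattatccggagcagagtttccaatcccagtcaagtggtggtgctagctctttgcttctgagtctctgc
Esr1, chr10:4709908-4710157, plus strand: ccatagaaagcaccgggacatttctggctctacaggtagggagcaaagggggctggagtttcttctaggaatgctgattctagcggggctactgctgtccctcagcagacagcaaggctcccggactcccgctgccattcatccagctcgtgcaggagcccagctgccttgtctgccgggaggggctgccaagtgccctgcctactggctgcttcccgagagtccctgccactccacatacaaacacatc
The half-site occurs in 14.0% of 32851 such windows of the RefSeq annotation of GRCm38.p6, and the palindromic estrogen response element (GGTCA and its reverse complement with 3 bases of any kind between) in 21 of them (0.0639%). No match says only that these letters are not in these windows. The windows hold 4 and 7 CpG dinucleotides, against a median of 6 and quartiles of 2 and 16 over all windows.

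Esr1 was higher in the knockout library in each of the 5 keratin-rich clusters with at least 20 cells in both libraries, and every one of these 5 intervals lay above 0. In cluster 1, Esr1 had 18.7 CPM in the knockout library and 1.58 CPM in the wild type library (85 and 58 UMIs, log2 ratio 3.57, 3.07 to 4.07). In the suprabasal cluster 2 it had 17.6 CPM in the knockout library and 0.747 CPM in the wild type library (143 and 9 UMIs, log2 ratio 4.55, 3.59 to 5.71). In cluster 3 it had 18.1 CPM in the knockout library and 1.25 CPM in the wild type library (138 and 20 UMIs, log2 ratio 3.85, 3.17 to 4.61). These clusters, which both libraries filled with over 100 cells, thus had the same direction and a similar size. Cluster 4 had 22.8 CPM in the knockout library and 3.02 CPM in the wild type library (565 and 3 UMIs), with a log2 ratio of 2.92 and a wide interval of 1.36 to 5.20. In the mitotic cluster 5 the values were 13.9 CPM in the knockout library and 1.21 CPM in the wild type library (17 and 10 UMIs, log2 ratio 3.52, 2.31 to 4.81). Cluster 0 had 26.8 CPM from 427 UMIs in the knockout library and 0 UMIs in 7 cells of the wild type library, at least 2.37-fold higher if the wild type count is set to 3 UMIs.

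The higher Esr1 level was not limited to keratin-rich cells. Schwann-like cells had 29.8 CPM in the knockout library and 3.67 CPM in the wild type library (13 and 3 UMIs, log2 ratio 3.02, 1.16 to 5.47). Cluster 6 had 27.4 CPM in the knockout library and 4.02 CPM in the wild type library (22 and 5 UMIs, log2 ratio 2.77, 1.33 to 4.52). Melanocyte-like cells had 23.1 CPM from 15 UMIs in the knockout library and 0 UMIs in 22 cells of the wild type library, at least 2.01-fold higher on the same basis. Myeloid-like cells gave no direction beyond counting error, with 11.2 CPM in the knockout library and 1.28 CPM in the wild type library from 4 and 1 UMIs (log2 ratio 3.13, −0.20 to 8.76). Ordered by level, Esr1 ran from Schwann-like cells at the top to myeloid-like cells at the bottom in the knockout library, and no neighbours in either library's order had intervals that stood apart.

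**Figure D1:**
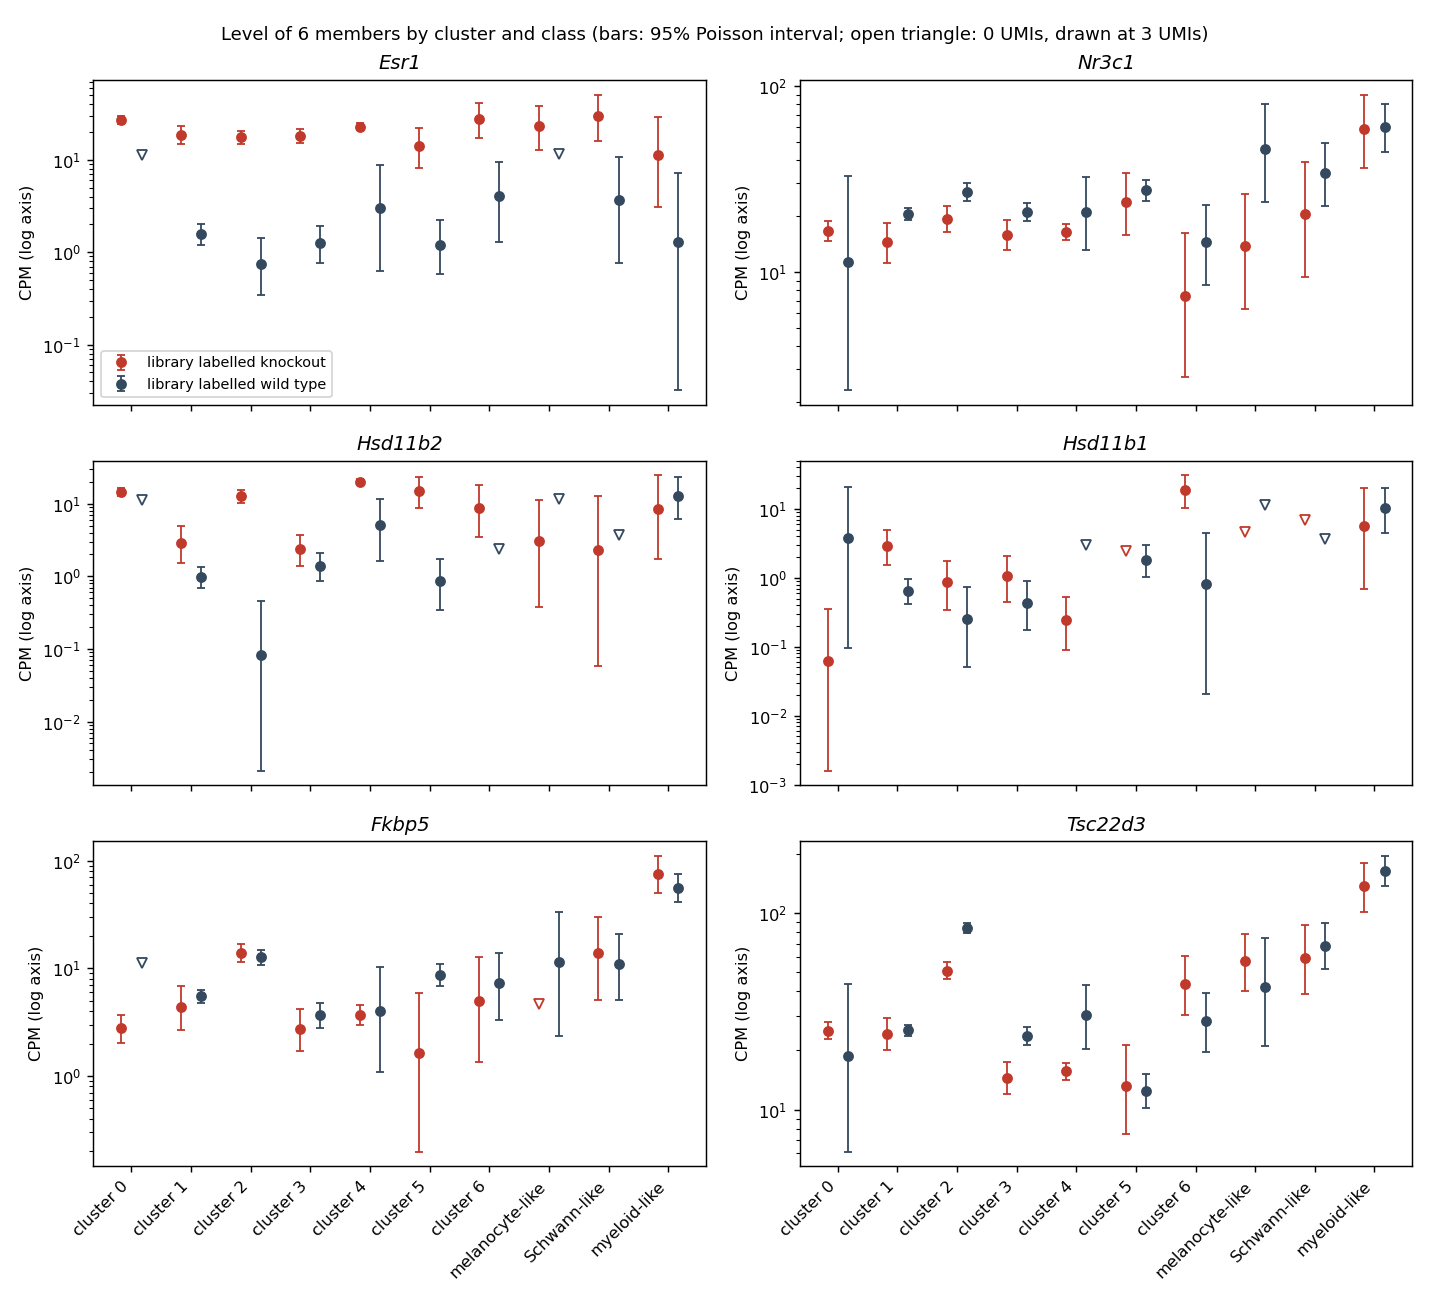
Level in CPM (log axis) of 6 members in clusters 0 to 6 and 3 classes, in the library labelled knockout (red, left) and the library labelled wild type (blue, right), with 95% Poisson intervals and an open triangle at 3 UMIs where a library had 0. Esr1 lies between 11.2 and 29.8 CPM in every cluster and class of the knockout library. In the wild type library it lies at 4.02 CPM or below wherever it had a UMI. Cluster 0 and melanocyte-like cells of the wild type library had 0 Esr1 UMIs and are drawn at 11.3 and 11.5 CPM.

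Free RNA from broken keratinocytes can add UMIs to cells of other types. Its part in the Esr1 counts was not tested, and no profile of free RNA was measured; keratinocyte RNA in the same cells is given beside each Esr1 level. In the melanocyte-like cells of the knockout library Esr1 stood at 105% (58.3 to 173%) of its level in the keratin-rich cells, while Krt14, a basal keratin, stood at 6.29% and the 8 basal keratinocyte markers together at 7.26%. In Schwann-like cells Esr1 stood at 135% (71.6 to 231%), Krt14 at 7.12% and the basal markers at 9.11%. In myeloid-like cells Esr1 stood at 50.8% (13.8 to 130%), Krt14 at 6.59% and the basal markers at 7.49%. Cluster 6 held more keratinocyte RNA, with the basal markers at 26.4% and Esr1 at 124% (77.4 to 188%).

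**Figure D2:**
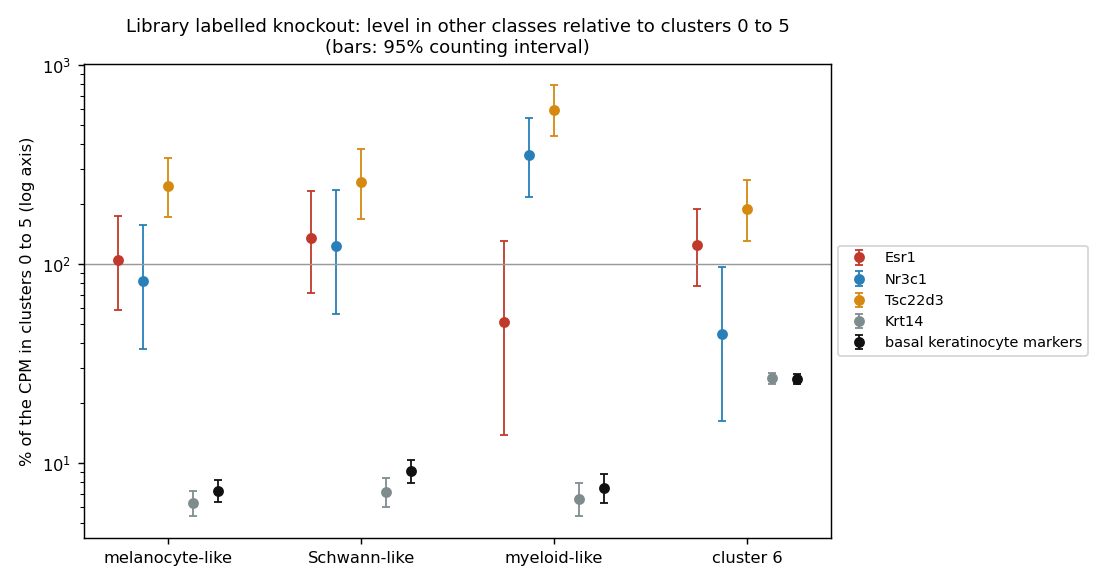
Level of each gene in 4 groups of cells of the library labelled knockout, as a percent of its CPM in clusters 0 to 5 (log axis, 95% counting intervals). Esr1 (red) lies near 100% in 3 groups and at 50.8% in myeloid-like cells, and Krt14 (grey) and the summed basal keratinocyte markers (black) lie below 10% except in cluster 6.

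Esr1 RNA was spread thinly over many cells. In the knockout library 827 of 1597 keratin-rich cells had at least 1 Esr1 UMI (51.8%, exact Clopper-Pearson interval 49.3 to 54.3%), and in the wild type library 75 of 1753 (4.28%, 3.38 to 5.33%). After each cell was thinned to 8000 UMIs the shares were 16.3% in the knockout library and 1.25% in the wild type library. The median depths were 35703 UMIs per cell in the knockout library and 39673 in the wild type library. No class could be taken as one that lacks Esr1, and the Schwann-like cells of the knockout library, with a median of 11069.5 UMIs, held a UMI in 36.1% (13 of 36). Of the keratin-rich cells in the knockout library 485 had 1 UMI, 203 had 2 and 139 had 3 or more, and no cell had more than 7. The 10 cells with the most Esr1 held 4.29% of its UMIs, and 241 cells held 50%. The variance of the thinned counts was 1.06 times their mean, where independent counting at a common level gives 1. Across 4 groups of about equal size ordered by depth, the share with a UMI was 30.8, 46.9, 64.4 and 65.0% from shallow to deep, while the level was 23.6, 22.9, 25.6 and 19.1 CPM.

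The genes next to Esr1 on chromosome 10 did not share its ratio. Syne1, which starts 14.6 kb after it, had 4.24 CPM in both libraries (log2 ratio 0.00). Armt1, 157 kb before it, had 9.36 CPM in the knockout library and 9.22 CPM in the wild type library (log2 ratio 0.02), and Ccdc170, 47.5 kb before it, had 2 UMIs in the knockout library and 5 in the wild type library. Farther out, Rmnd1, Zbtb2 and Akap12 had log2 ratios of 0.20, 0.22 and 0.26. The genes most like Esr1 by level, by Pearson correlation of log2(CPM + 1) over 19 cluster-by-library sums, were Cnih2 (0.82), Obp2a (0.77) and Scarf2 (0.74). These sums share libraries and depth, and the values were 0.41, 0.27 and 0.31 within the 10 sums of the knockout library and −0.14, 0.49 and 0.70 within the 9 of the wild type library. Cnih2, which codes for a protein that accompanies glutamate receptors, had 9.27 CPM in the knockout library and 0.363 CPM in the wild type library.

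The other receptors behaved differently. Nr3c1, the glucocorticoid receptor gene, had 1047 UMIs in the keratin-rich cells of the knockout library (16.8 CPM) and 1666 in those of the wild type library (22.4 CPM), a level 1.33-fold lower (log2 ratio −0.42, −0.53 to −0.30). Its locus (identifier 14815) is on the minus strand of chromosome 18, 39410545 to 39519421. It was lower in the knockout library in 5 of 5 clusters, with 3 intervals below 0 and log2 ratios between −0.50 and −0.21. In cluster 1 it had 14.5 CPM in the knockout library and 20.5 CPM in the wild type library, in cluster 2 19.3 CPM in the knockout library and 26.9 CPM in the wild type library, and in cluster 3 15.9 CPM in the knockout library and 21.1 CPM in the wild type library. At least 1 UMI was found in 678 keratin-rich cells of the knockout library (42.5%, 13.8% after thinning) and in 944 of the wild type library (53.9%, 16.7% after thinning). Its UMIs were spread over cells like those of Esr1, with a variance of 1.00 times the mean in the knockout library and 1.04 times in the wild type library.

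Nr3c1 was highest in myeloid-like cells, at 58.9 CPM in the knockout library and 60.1 CPM in the wild type library (21 and 47 UMIs, log2 ratio −0.03, −0.85 to 0.74). Schwann-like cells had 20.6 CPM in the knockout library and 34.3 CPM in the wild type library, with an interval that includes 0 (log2 ratio −0.73, −2.00 to 0.39). Melanocyte-like cells had 13.8 CPM in the knockout library and 45.8 CPM in the wild type library from 9 and 12 UMIs (log2 ratio −1.73, −3.15 to −0.36). In the knockout library the myeloid-like interval (36.5 to 90.0 CPM) lay above that of cluster 5, the next in the order. It overlapped that of Schwann-like cells (9.42 to 39.1 CPM). In the wild type library the myeloid-like interval (44.2 to 79.9 CPM) overlapped those of melanocyte-like (23.7 to 80.1 CPM) and Schwann-like cells (22.8 to 49.5 CPM). The genes most like Nr3c1 by level over the 19 sums were Lacc1 (0.91), Arrb2 (0.89) and Dnase1l1 (0.87). Within the sums of the knockout library they had 0.92, 0.94 and 0.86, and within those of the wild type library 0.85, 0.83 and 0.90.

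Pgr, the progesterone receptor gene and a known estrogen target in the reproductive tract (identifier 18667, chromosome 9 at 8898900 to 8968611, plus strand), had 0 UMIs in 1738 cells of the knockout library and in 1912 of the wild type library. With 3 cells taken as the limit that a count of 0 allows, the share of cells with a UMI could be up to 0.173% in the knockout library and 0.157% in the wild type library. Nr3c2, the mineralocorticoid receptor gene (identifier 110784, chromosome 8 at 76898083 to 77245012, plus strand), had 4 UMIs in the knockout library and 9 in the wild type library, all in keratin-rich cells (log2 ratio −0.91, −3.07 to 0.93). At this depth a difference in either gene was not detectable.

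Hsd11b2, the enzyme that inactivates corticosterone and cortisol, had 876 UMIs in the keratin-rich cells of the knockout library (14.1 CPM), against 71 in those of the wild type library (0.955 CPM). The log2 ratio was 3.88 (3.53 to 4.25), 14.7-fold and rank 7 of 13554. Hsd11b2 (identifier 15484) spans chromosome 8 from 105518746 to 105523988 on the plus strand and overlaps no other annotated gene. The ratio depended on which clusters were compared: it was 2.86 over clusters 1, 2 and 3 alone and 2.66 with clusters 1 to 5 weighted equally. Both of these settings were added after the data were seen.

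The level of Hsd11b2 varied more between clusters than that of Esr1. Cluster 4 had 19.8 CPM in the knockout library and 5.03 CPM in the wild type library (490 and 5 UMIs, log2 ratio 1.98, 0.74 to 3.60), and the 5 wild type UMIs lay in 1 cell. Cluster 0 had 14.7 CPM from 234 UMIs in the knockout library and 0 UMIs in the 7 wild type cells, at least 1.30-fold higher with 3 UMIs as the wild type count. In cluster 1 it had 2.86 CPM in the knockout library and 0.979 CPM in the wild type library (13 and 36 UMIs, log2 ratio 1.55, 0.51 to 2.49). Cluster 3 had 2.36 CPM in the knockout library and 1.38 CPM in the wild type library, a log2 ratio of 0.78 whose interval, −0.21 to 1.74, includes 0. Clusters 0 and 4, which hold most of the knockout library's keratin-rich cells, thus carried most of its Hsd11b2 UMIs, and the 2 clusters where both libraries had over 100 cells and no single cell dominated gave smaller ratios. In cluster 2, 93 of the 103 UMIs in the knockout library lay in 1 cell, against 1 UMI in the wild type library. With the top cell left out in both libraries, 10 UMIs were left in the knockout library and 0 in the wild type library. In cluster 5, 16 of 18 UMIs in the knockout library lay in 1 cell, against 7 UMIs in the wild type library, and without the top cells the log2 ratio of 2.21 had an interval of −1.37 to 5.34.

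**Figure D3:**
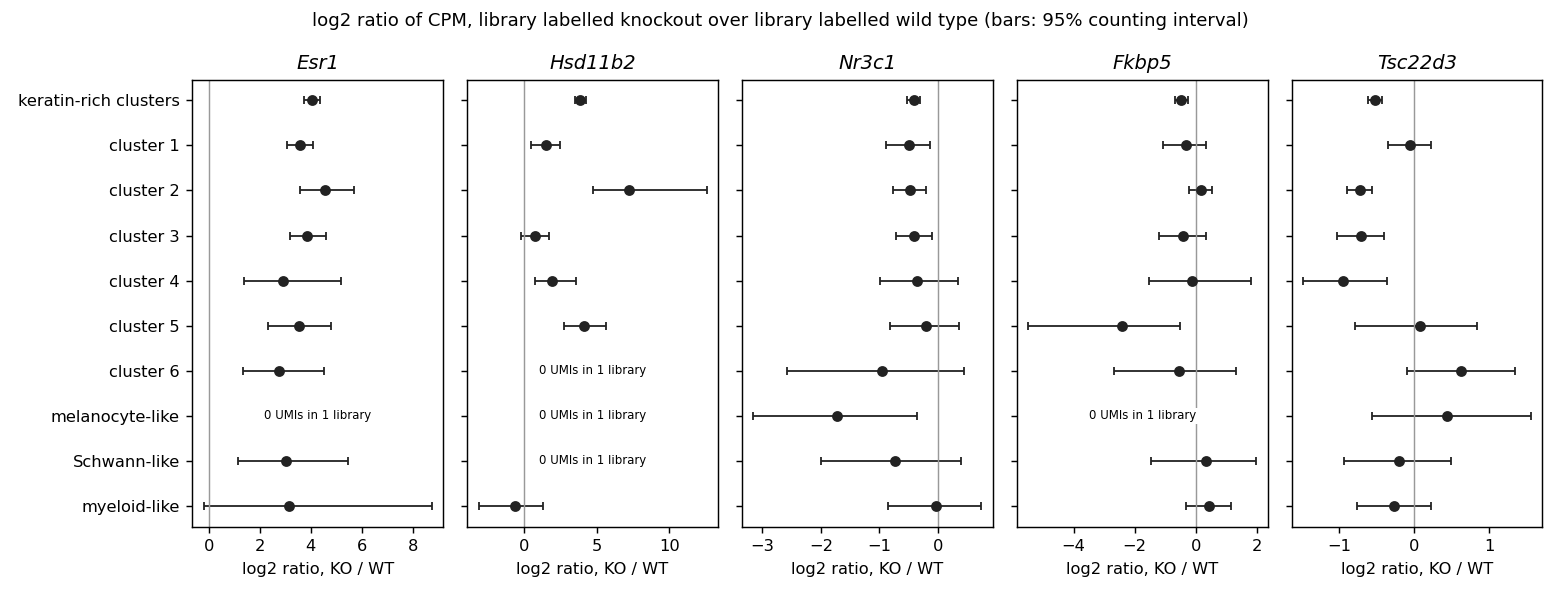
log2 ratio of CPM, library labelled knockout over library labelled wild type, of 5 members in clusters 0 to 5 together, in clusters 1 to 6 and in 3 classes (bars, 95% counting intervals; each panel has its own axis). Each Esr1 point lies above 0, Hsd11b2 runs from 0.78 to 7.25 over clusters 1 to 5, and Nr3c1 lies between −0.50 and −0.21 there.

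A few cells held most of the Hsd11b2 RNA. At least 1 UMI was found in 208 of 1597 keratin-rich cells of the knockout library (13%, 6.20% after thinning to 8000 UMIs) and in 52 of 1753 of the wild type library (2.97%, 0.856% after thinning). Schwann-like cells, taken here as a type without this enzyme, had a UMI in 1 of 36 cells of the knockout library (2.78%, median depth 11069.5 UMIs) and in 0 of 59 of the wild type library (median depth 12363 UMIs), which on the basis of 3 cells allows up to 5.08%. Of the knockout cells, 21 had 10 or more UMIs and together held 481 of the 876 (54.9%), while no keratin-rich cell of the wild type library had more than 5. Of these 21 cells 13 lay in cluster 4, 6 in cluster 0 and 1 each in clusters 2 and 5. In the knockout library 17 cells held 50% of the Hsd11b2 UMIs, against 241 cells for Esr1. In the wild type library 17 cells held 50% of only 71 Hsd11b2 UMIs, and 25 cells 50% of only 100 Esr1 UMIs. The variance of the thinned Hsd11b2 counts was 3.66 times the mean in the knockout library and 1.34 times in the wild type library.

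**Figure D4:**
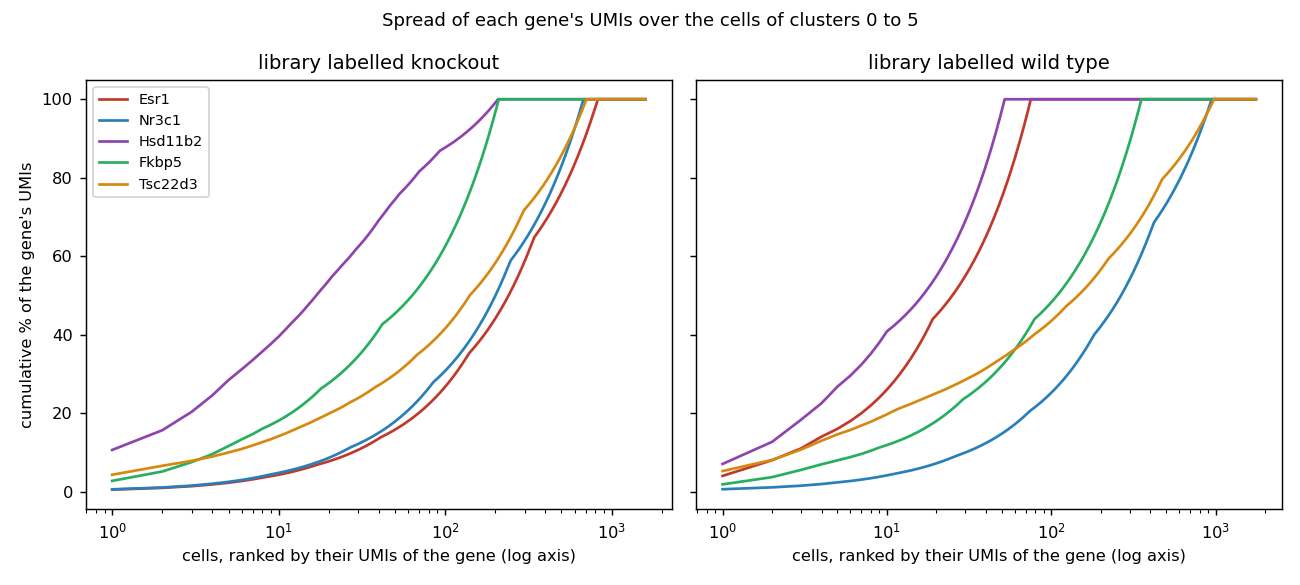
Cumulative percent of each gene's UMIs (vertical axis) over the keratin-rich cells ranked by their UMIs of that gene (log axis), in the library labelled knockout (left) and the library labelled wild type (right). In the knockout library 10 cells hold 39.5% of the Hsd11b2 UMIs (purple) and 4.29% of the Esr1 UMIs (red). In the wild type library, with only 71 Hsd11b2 and 100 Esr1 UMIs, 10 cells hold 40.8% and 26.0%.

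Esr1 and Hsd11b2 were found in the same cell about as often as their separate shares give. In the keratin-rich cells of the knockout library 121 cells held both, and the product of the shares gives 108. After thinning the counts were 19 and 16.2. Esr1 and Nr3c1 were both found in 386 cells, where the product gives 351, and in 51 after thinning, where it gives 36.1. Cells are not replicates, and deep cells hold more of every gene, so these counts are descriptions.

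Outside the keratin-rich cells Hsd11b2 was at 8.41 CPM in myeloid-like cells of the knockout library and 12.8 CPM in those of the wild type library (3 and 10 UMIs, log2 ratio −0.60, −3.10 to 1.35). In the wild type library the myeloid-like level was above that of every keratin-rich cluster, but its interval (6.13 to 23.5 CPM) overlapped that of cluster 4, and 4 of the 10 UMIs lay in 1 cell. Cluster 6 had 7 UMIs in the knockout library, 6 of them in 1 cell, and 0 in the wild type library. Melanocyte-like cells had 2 UMIs in the knockout library and 0 in the wild type library. The neighbours of Hsd11b2 went different ways: Atp6v0d1, which starts 0.473 kb after it, had 73.6 CPM in the knockout library and 81.9 CPM in the wild type library (log2 ratio −0.15), Tppp3 had a log2 ratio of 1.32 and Agrp one of −2.06. The genes most like it by level over the 19 sums were Htatip2 (0.74), Limd2 (0.71) and Tmem165 (0.66), with 0.42, 0.45 and 0.25 within the knockout library and 0.68, 0.72 and 0.73 within the wild type library.

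Hsd11b1, the enzyme that regenerates active glucocorticoid, was scarce in the keratin-rich cells, with 35 UMIs in the knockout library (0.562 CPM) and 50 in the wild type library (0.673 CPM). Its interval included 0 (log2 ratio −0.26, −0.93 to 0.39), and over clusters 1, 2 and 3 alone the ratio was 1.39. In cluster 1 it had 2.86 CPM in the knockout library and 0.652 CPM in the wild type library (13 and 24 UMIs, log2 ratio 2.13, 1.03 to 3.16), with 4 UMIs in the top cell of each library. Myeloid-like cells had 5.61 CPM in the knockout library and 10.2 CPM in the wild type library (2 and 8 UMIs, 6 of the 8 in 1 cell). All 15 UMIs of cluster 6 in the knockout library lay in 1 cell, against 1 UMI in the wild type library. Its locus (identifier 15483) is on the minus strand of chromosome 1, 193221640 to 193264045.

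None of the 3 response genes was higher in the keratin-rich cells of the knockout library as a whole. Greb1, a known early estrogen-induced gene of breast and uterine cells, had 15 UMIs in the keratin-rich cells of the knockout library (0.241 CPM) and 29 in those of the wild type library (0.390 CPM), with an interval that includes 0 (log2 ratio −0.70, −1.70 to 0.25). After thinning the log2 ratio was 1.13, but only 6 keratin-rich cells of the knockout library and 3 of the wild type library still held a UMI. Its highest level was in Schwann-like cells, at 34.3 CPM in the knockout library and 19.6 CPM in the wild type library (15 and 16 UMIs, log2 ratio 0.81, −0.31 to 1.92). In the other clusters and classes it did not pass 3.82 CPM. Of the 1597 keratin-rich knockout cells 7 held both Esr1 and Greb1, where the product of their shares gives 7.25. It spans chromosome 12 from 16670615 to 16801394 on the minus strand (identifier 268527). One of its RefSeq windows is shown because it holds an estrogen half-site, in capitals, whose first base lies 88 bases before the start; 14.0% of all windows hold this half-site, and a match is not evidence of binding.
Greb1, chr12:16800887-16801136, minus strand: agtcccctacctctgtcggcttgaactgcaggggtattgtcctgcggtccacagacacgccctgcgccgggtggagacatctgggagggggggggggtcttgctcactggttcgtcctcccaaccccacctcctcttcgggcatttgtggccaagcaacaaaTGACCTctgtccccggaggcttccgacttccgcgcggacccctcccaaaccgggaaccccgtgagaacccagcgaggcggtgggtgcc

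Fkbp5, a co-chaperone of the glucocorticoid receptor and one of its known targets, had 293 UMIs in the keratin-rich cells of the knockout library (4.71 CPM) and 489 in those of the wild type library (6.58 CPM). It was 1.40-fold lower (log2 ratio −0.48, −0.70 to −0.27). Over clusters 1, 2 and 3 pooled the log2 ratio was 0.26, although within them it was −0.32, 0.15 and −0.43. The libraries hold these clusters in different shares: 104, 211 and 152 cells in the knockout library and 855, 308 and 409 in the wild type library. Among the keratin-rich clusters it was highest in the suprabasal cluster 2, at 14.0 CPM in the knockout library and 12.6 CPM in the wild type library (log2 ratio 0.15, −0.21 to 0.51). In the mitotic cluster 5 it had 1.64 CPM in the knockout library and 8.73 CPM in the wild type library (2 and 72 UMIs, log2 ratio −2.41, −5.48 to −0.51), the one interval of 5 that lay below 0. Cluster 1 had 4.40 CPM in the knockout library and 5.49 CPM in the wild type library, and cluster 3 had 2.75 CPM in the knockout library and 3.69 CPM in the wild type library. Myeloid-like cells had the highest level of any class, 75.7 CPM in the knockout library and 56.3 CPM in the wild type library (27 and 44 UMIs, log2 ratio 0.43, −0.32 to 1.15). Fkbp5 (identifier 14229) spans chromosome 17 from 28398753 to 28486149 on the minus strand and overlaps the gene model Gm22146, which had 1 UMI in the knockout library and 0 in the wild type library.

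Tsc22d3, which codes for the glucocorticoid-induced leucine zipper (GILZ), had 1444 UMIs in the keratin-rich cells of the knockout library (23.2 CPM) and 2468 in those of the wild type library (33.2 CPM), 1.43-fold lower (log2 ratio −0.52, −0.61 to −0.42). The suprabasal cluster 2 had 51.1 CPM in the knockout library and 84.4 CPM in the wild type library (log2 ratio −0.73, −0.89 to −0.56). Cluster 3 had 14.5 CPM in the knockout library and 23.7 CPM in the wild type library (log2 ratio −0.71, −1.02 to −0.40). Cluster 4 had 15.7 CPM in the knockout library and 30.2 CPM in the wild type library (388 and 30 UMIs, log2 ratio −0.95, −1.48 to −0.36), and −0.47 with an interval that includes 0 (−1.11 to 0.26) without the top cells. These 3 of the 5 intervals lay below 0. Clusters 1 and 5 had log2 ratios of −0.06 and 0.07 with intervals on both sides of 0, and with the top cells left out cluster 1 was at −0.53 (−0.88 to −0.20).

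Some cells held many Tsc22d3 UMIs. In the keratin-rich cells of the knockout library 12 cells with 10 or more UMIs held 15.5% of the gene's UMIs, and in those of the wild type library 20 such cells held 25.1%. Of these, 10 in the knockout library and 16 in the wild type library lay in cluster 2, and the top cell held 62 UMIs in the knockout library and 129 in the wild type library. The variance of the thinned counts was 1.78 times the mean in the knockout library and 7.36 times in the wild type library. With each cell weighted equally the log2 ratio was −0.70. Over clusters 1, 2 and 3 pooled, which the libraries hold in different shares, it was −0.20, and within them it was −0.06, −0.73 and −0.71. Tsc22d3 was highest in myeloid-like cells, at 137 CPM in the knockout library and 165 CPM in the wild type library (49 and 129 UMIs, log2 ratio −0.26, −0.77 to 0.22). Tsc22d3 (identifier 14605) spans chromosome X from 140539528 to 140600522 on the minus strand. One of its windows is shown because it holds a half-site of the glucocorticoid response element in capitals (here TGTTCT, the reverse complement of the sequence AGAACA), whose first base lies 185 bases before the start.
Tsc22d3, chrX:140600523-140600772, minus strand: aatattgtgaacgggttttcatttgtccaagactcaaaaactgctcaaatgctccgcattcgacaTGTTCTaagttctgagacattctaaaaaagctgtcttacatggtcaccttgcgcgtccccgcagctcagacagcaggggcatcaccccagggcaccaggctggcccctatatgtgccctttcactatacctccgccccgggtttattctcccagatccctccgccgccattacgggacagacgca
This half-site occurs in 16.1% of the 32851 windows, and the palindromic element (the half-site and its reverse complement with 3 bases of any kind between) in 3 of them (0.00913%). Windows were listed for 7 of the 9 members; Hsd11b2 and Nr3c1 had no entry. Among the 11 windows of these members, the pair printed with capitals were the only ones with either half-site, and none held a palindrome.

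Markers of other cell types moved beside Nr3c1, Fkbp5 and Tsc22d3, and their part in these results was not tested. The 10 myeloid markers, each detected in both libraries, summed to 20.7 CPM in the keratin-rich cells of the knockout library and 28.9 CPM in those of the wild type library, against 20622 CPM in the myeloid-like cells of the knockout library and 18036 CPM in those of the wild type library. The 12 measured suprabasal markers, also each detected, summed to 1098 CPM in the keratin-rich cells of the knockout library and 457 CPM in those of the wild type library. Among the keratin-rich clusters Tsc22d3 was highest in the suprabasal cluster 2. This cluster held 13.2% of the keratin-rich cells in the knockout library and 17.6% in the wild type library. The genes most like Tsc22d3 by level over the 19 sums were Card19 (0.90), Id2 (0.89) and Gde1 (0.88), with 0.92, 0.86 and 0.95 within the knockout library and 0.92, 0.93 and 0.84 within the wild type library. Those most like Fkbp5 were Lyn (0.91), Herc3 (0.90) and Adam15 (0.88), with 0.92, 0.96 and 0.91 within the knockout library and 0.93, 0.72 and 0.83 within the wild type library.

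Genes known to respond to glucocorticoids moved in both directions. Of 30 listed genes 26 had at least 20 UMIs in the keratin-rich cells, and 7 were at least 1.5-fold higher in the knockout library, 4 at least 1.5-fold lower and 15 in between (26.9% higher, 15.4% lower). Over all 16754 genes at that minimum 7.73% were higher and 17.4% lower. The list median was a log2 ratio of 0.06, beside −0.02 over all genes. Within clusters 1 to 5 the list medians were 0.30, −0.09, 0.08, −0.37 and −0.11, beside −0.11, −0.01, −0.14, −0.02 and −0.08 over all genes of the same cluster with at least 20 UMIs there. Of the list genes with a ratio, 2 of 22, 3 of 20, 5 of 21, 1 of 21 and 4 of 19 were higher in clusters 1 to 5. The numbers lower were 1, 4, 3, 8 and 6. Over all genes of these clusters 6.25, 7.00, 4.97, 10.8 and 7.53% were higher, and 19.4, 14.0, 21.3, 18.1 and 21.0% lower. Cluster 4 had only 31 wild type cells. Tgm2, a transglutaminase, had 4.93 CPM in the knockout library and 2.42 CPM in the wild type library (log2 ratio 1.03, 0.76 to 1.30). Its log2 ratio was 0.12, 1.08 and 1.40 in clusters 1 to 3 but −1.20 in cluster 4 (119 and 11 UMIs) and −0.70 in cluster 5 (2 and 22 UMIs). Il1r2, the decoy receptor for interleukin 1, had 2.62 CPM in the knockout library and 1.41 CPM in the wild type library (log2 ratio 0.89, 0.53 to 1.26). Its log2 ratio was below 0 in cluster 3, at −0.52 (19 and 57 UMIs), and in cluster 5, at −0.09 (5 and 36 UMIs). Glul, glutamine synthetase, had 25.2 CPM in the knockout library and 62.7 CPM in the wild type library (log2 ratio −1.32, −1.40 to −1.23). It was lower in the knockout library in each of clusters 1 to 5, with log2 ratios of −0.91, −1.60, −0.54, −1.44 and −0.62. Cavin2, a coat protein of caveolae, had 0.562 CPM in the knockout library and 1.28 CPM in the wild type library (log2 ratio −1.19, −1.79 to −0.61). Its log2 ratio was −0.44 and −0.21 in clusters 2 and 3, but −5.14 in cluster 4 (17 and 24 UMIs). Clusters 1 and 5 had 0 UMIs of it in the knockout library, against 29 and 16 in the wild type library. A single cell held 22.1% of its wild type UMIs.

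Genes known to respond to estrogen were also split. Of 32 listed genes 27 had at least 20 UMIs, 8 were higher in the knockout library, 5 lower and 14 in between (29.6% higher, 18.5% lower, beside 7.73% and 17.4% over all genes), with a median log2 ratio of 0.07. Within clusters 1 to 5 the list medians were −0.07, −0.03, −0.17, −0.14 and −0.05, beside −0.11, −0.01, −0.14, −0.02 and −0.08 over all genes there. Of the list genes with a ratio, 6 of 22, 5 of 22, 5 of 21, 3 of 21 and 5 of 19 were higher there. The numbers lower were 3, 3, 6, 5 and 4. Over all genes of these clusters 6.25, 7.00, 4.97, 10.8 and 7.53% were higher, and 19.4, 14.0, 21.3, 18.1 and 21.0% lower. Ramp3, which alters the ligand choice of the calcitonin receptor-like receptor, had 1.45 CPM in the knockout library and 0.363 CPM in the wild type library (90 and 27 UMIs, log2 ratio 1.99, 1.36 to 2.67). Its log2 ratio was 2.43, 3.80 and 1.26 in clusters 1 to 3. Of its 90 knockout UMIs 47 lay in cluster 2, and cluster 5 had 0 in the knockout library and 9 in the wild type library. Igf1, insulin-like growth factor 1, had 1.64 CPM in the knockout library and 0.431 CPM in the wild type library (102 and 32 UMIs, log2 ratio 1.93, 1.34 to 2.55). Its log2 ratio was 1.25, 2.15, 0.07 and 2.17 in clusters 1, 2, 3 and 5. Of its 102 knockout UMIs 50 lay in cluster 4, where the wild type library had 0. Ltf, which codes for lactoferrin and is a known estrogen target of the mouse uterus, went the other way, with 6.92 CPM in the knockout library and 41.8 CPM in the wild type library (log2 ratio −2.59, −2.74 to −2.45). A single cell held 32.7% of the Ltf UMIs in the knockout library and another 21.6% in the wild type library. Most Ltf UMIs lay in cluster 2, 369 of 431 in the knockout library and 2795 of 3105 in the wild type library. In clusters 1 to 5 its log2 ratio was −1.70, −2.36, −3.38, −0.35 and −2.45. Sgk3, a serine/threonine kinase, had 10.4 CPM in the knockout library and 18.0 CPM in the wild type library (log2 ratio −0.79, −0.93 to −0.66), and was lower in each of clusters 1 to 5.

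Chaperones and coregulators of the receptors were mostly within 1.5-fold. Of 24 chaperones and coregulators, each with at least 20 UMIs, 2 were at least 1.5-fold higher in the knockout library, 0 were lower and 22 lay in between (8.33% higher, beside 7.73% over all genes), with a median log2 ratio of 0.19 that was between −0.02 and 0.15 within clusters 1 to 5. Prmt1, an arginine methyltransferase that acts as a coactivator, had 707 CPM in the knockout library and 463 CPM in the wild type library (log2 ratio 0.61, 0.59 to 0.63). The lowest were Dnajb1 and Bag1, a heat-shock protein and a chaperone partner, at log2 ratios of −0.19 and −0.14. Of 37 related receptors 27 passed the minimum, 0 were higher, 2 were lower and 25 lay in between (7.41% lower, beside 17.4% over all genes), with a median of −0.06. Rarb, retinoic acid receptor beta, had 3.23 CPM in the knockout library and 5.79 CPM in the wild type library (log2 ratio −0.84, −1.09 to −0.60). Nr2f6 and Nr2c2, orphan receptors, were at 0.46 and 0.45, and Nr6a1 at −0.42.

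Over clusters 0 to 5 together, genes of steroid metabolism had the lowest median of the 6 lists, but not within clusters 3 and 4. Of 39 listed genes 22 passed the minimum, 1 was at least 1.5-fold higher in the knockout library, 8 were lower and 13 lay in between (4.55% higher, 36.4% lower, beside 7.73% and 17.4% over all genes), with a median log2 ratio of −0.30. Within clusters 1 to 5 the median was −0.13, −0.10, −0.12, −0.21 and −0.42. Hsd17b11, a dehydrogenase of lipid droplets, had 0.851 CPM in the knockout library and 5.45 CPM in the wild type library (53 and 405 UMIs, log2 ratio −2.68, −3.12 to −2.26). It was lower in the knockout library in each of clusters 1 to 5, at −2.15, −4.05, −2.86 and −3.00 in clusters 1 to 4 and at −1.49 or below in cluster 5, where it had 0 UMIs in the knockout library (set to 3) and 57 in the wild type library. Fdxr, which passes electrons to mitochondrial steroid hydroxylases, had 3.42 CPM in the knockout library and 6.11 CPM in the wild type library (log2 ratio −0.84, −1.08 to −0.60). H6pd makes the NADPH that the type 1 11β-hydroxysteroid dehydrogenase uses in the endoplasmic reticulum; chosen after its value was seen, it had 2.18 CPM in the knockout library and 3.81 CPM in the wild type library (log2 ratio −0.80, −1.11 to −0.50, but 0.14 in cluster 2). Hsd3b7, an enzyme of bile acid synthesis, was the 1 gene above 1.5-fold, with 27.6 CPM in the knockout library and 16.2 CPM in the wild type library (log2 ratio 0.77, 0.66 to 0.88), and Hsd17b12 stood at 0.16.

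Hsd11b2 guards the mineralocorticoid receptor in kidney, so genes of sodium transport that this receptor is known to regulate were listed too. Of 15, 13 passed the minimum, 3 were higher in the knockout library, 2 lower and 8 in between (23.1% higher, 15.4% lower, beside 7.73% and 17.4% over all genes), with a median log2 ratio of −0.14. The median was above 0 in clusters 1, 2 and 3, at 0.18, 0.15 and 0.16, and −0.11 and −0.10 in clusters 4 and 5. Stk39, a kinase that activates cation-chloride cotransporters, had 12 CPM in the knockout library and 5.14 CPM in the wild type library (log2 ratio 1.22, 1.04 to 1.40). Scnn1a, the alpha subunit of the epithelial sodium channel, had 3.92 CPM in the knockout library and 7.81 CPM in the wild type library (log2 ratio −0.99, −1.22 to −0.78). Fxyd4 and Atp1b1, partners of the sodium pump, were at 0.59 and −0.39.

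**Figure D5:**
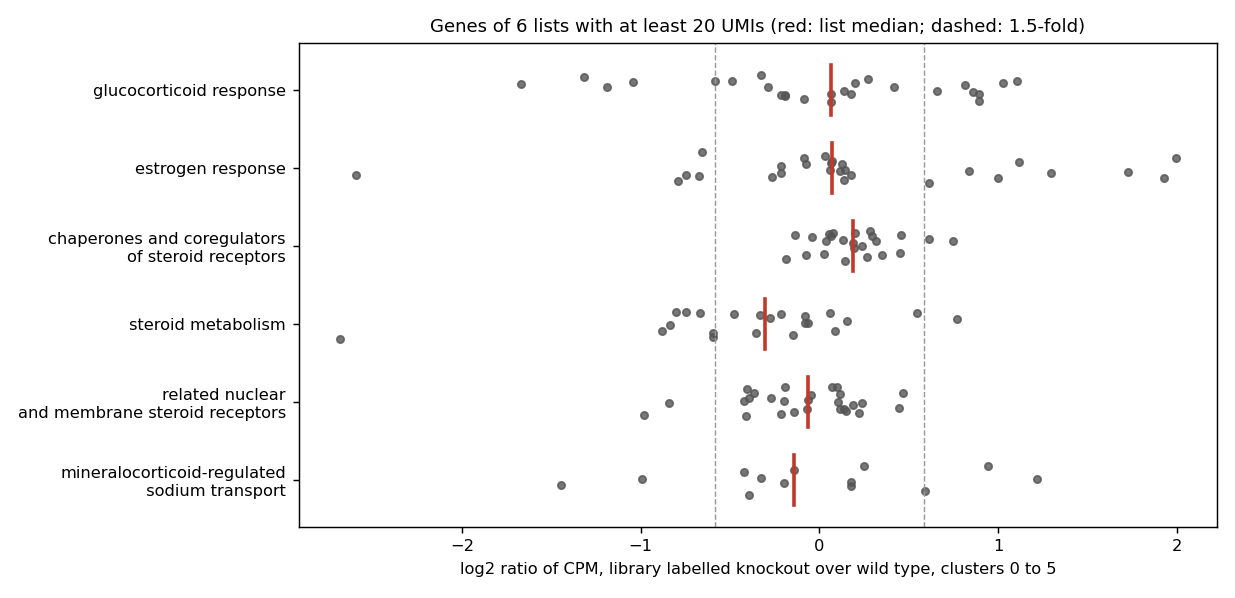
log2 ratio of CPM in clusters 0 to 5, library labelled knockout over library labelled wild type, of each gene of 6 lists with at least 20 UMIs over both libraries (points), with the list median (red bar) and 1.5-fold in either direction (dashed lines). The medians lie between −0.30 (steroid metabolism) and 0.19 (chaperones and coregulators).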

How the data were processed

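Single-cell RNA from 2 libraries, 1 per genotype, was analysed. For each library the authors deposited 1 count table, with genes in rows and cells in columns, and its whole numbers were taken as UMI counts. The kit was Chromium Single Cell 3′ v2, per the labels' protocols. The build mm10, Cell Ranger 2.1 and Seurat 2.0 appear in the submitters' processing notes without their roles. Strand use, intronic reads, cell calling and doublet removal were not given in the sources used here. RefSeq symbols (GRCm38.p6) matched 31049 of 36528 NCBI gene identifiers, and the 5479 without a symbol, 2.67% of counts, stayed in the totals. Cells with fewer than 500 genes or over 10% mitochondrial UMIs were removed (16 in the knockout library, 13 in the wild type library). So were cells marked by Scrublet at an assumed rate of 0.02, 7 (0.398%) in the knockout library and 1 (0.0519%) in the wild type library, too few to show that the caller worked, and deep mixed cells remain. Clustering joined both libraries without integration or scaling (totals of 10000, log, 2000 variable genes without the members, 30 components, 15 neighbours, Leiden resolution 0.5). Cell types rest on rebuilt names: a class needed 3 markers at 5-fold, and clusters led by keratinocyte markers or by no set were joined as keratin-rich.

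UMIs were summed per class and library. All intervals are at 95%: exact Poisson for sums, exact conditional binomial for ratios, Clopper-Pearson for shares. They cover counting error alone. Limits for a count of 0 use 3 counts instead. Within a cluster, a list gene with 0 UMIs in 1 library entered at 3 counts, and was left out where that turned its direction. Lists took genes with at least 20 UMIs and counted them at 1.5-fold, while ranks used 100 UMIs and 2-fold. Thinning drew 8000 UMIs per cell, fewer than any kept cell had. Named beside the members were, per list, the 2 highest and 2 lowest genes with at least 100 UMIs, and, per member with 100 UMIs, the 3 most like genes. One gene that this rule names is not reported here. Neighbouring genes, H6pd, promoter windows and top cells were chosen after values were seen. Members and lists were chosen with earlier results of these data known. The ratio code was tested on simulated data. Motifs were searched on both strands of the 250 bases before each RefSeq start. The tools were scanpy 1.11.5 with its Scrublet, igraph 0.11.9, anndata 0.12.19, scikit-learn 1.9.0, matplotlib 3.10.9, pandas 2.3.3, scipy 1.17.1 and numpy 2.4.6 under Python 3.11.15.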

Additional observations from a re-analysis of the deposited data

How the results depend on the processing

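The log2 ratio in the keratin-rich cells was recomputed for the 8 members with UMIs under up to 15 settings, 3 of them added after seeing the data; Pgr had none. Esr1 ran from 3.54 (clusters 1 to 5 weighted equally) to 4.18, Nr3c1 from −0.45 to −0.27 (each cluster weighted equally), and Hsd11b2 from 2.66 to 3.92. With each cluster weighted equally Hsd11b2 was at 3.01, Greb1 at −3.00 and Fkbp5 at −0.24. This Greb1 value gives full weight to 1 UMI in the 7 wild type cells of cluster 0 (3.76 CPM). Every Greb1 value here rests on few UMIs, 15 in the knockout library and 29 in the wild type library before thinning. Over clusters 1, 2 and 3 pooled Hsd11b1 was at 1.39, Hsd11b2 at 2.86, Greb1 at −2.79, Tsc22d3 at −0.20 and Fkbp5 at 0.26. The pooled Fkbp5 value lies above its ratio within each of these clusters. In these clusters Greb1 had 1 UMI in the knockout library, in cluster 2. With clusters 1 to 5 weighted equally Hsd11b1 was at 0.67, Hsd11b2 at 2.66 and Greb1 at −2.44. After thinning to 8000 UMIs Greb1 was at 1.13 and Tsc22d3 at −0.74; Tsc22d3 was at −0.61 at Leiden resolution 0.3 and −0.70 with each cell weighted equally. The cause of these shifts was not tested. Nr3c2 moved by no more than its interval under 14 settings. At a minimum of 20 UMIs 527 genes were at least 2-fold higher in the knockout library and 1529 lower. A common minimum of 10065 UMIs removed 22 keratin-rich cells of the knockout library and 0 of the wild type library. No paired analysis was possible because each group has 1 library and no result comes from a test. With 1 library per genotype, genotype, pool, culture and library cannot be told apart.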
